A study of Mus musculus with 9 samples.

Results

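The 10 genes described here carry out the liver's response to a surplus of cholesterol. They are the genes of both liver X receptors (*Nr1h3* and *Nr1h2*), 4 sterol exporters (*Abca1*, *Abcg1*, *Abcg5* and *Abcg8*), the ubiquitin ligase gene *Mylip*, the sterol esterification gene *Soat2*, and the genes of lysosomal cholesterol exit, *Npc1* and *Npc2*. They were chosen by symbol and function, and all 10 were found among the 51912 genes listed. RNA was sequenced from the livers of 9 mice, 5 given an antisense oligonucleotide (ASO) against the apoC-III mRNA and 4 given a control ASO, and the comparison asks how hepatic gene expression differed once apoC-III was lowered. ApoC-III is a protein of triglyceride-rich lipoproteins that slows their removal from plasma. Every mouse, controls included, was Apoe-/- Ndst1 f/f Alb-Cre+, so the germline deletion of *Apoe* and the loss of *Ndst1* from hepatocytes, where the albumin promoter drives Cre, were common to both groups. Each ASO was given at 50 mg/kg/week for 8 weeks and the mice were fasted before the livers were taken. The age and sex of these mice, and their diet beside the RNA sequencing, are not given in the sources used here. Neither group therefore carried an intact *Apoe* gene, and no mice with apoE are among the 9.

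Liver X receptors are nuclear receptors that are switched on by oxysterols, oxidized forms of cholesterol that build up when cells hold too much of it. Paired with a retinoid X receptor, they bind DNA and raise the transcription of genes that move cholesterol out of the cell and out of the body, among them *Abca1*, *Abcg1*, *Abcg5*, *Abcg8* and *Mylip*. SOAT2 stores cholesterol as ester, and NPC1 and NPC2 hand cholesterol taken up with lipoproteins from the lysosome to the rest of the cell, which is the route by which lipoprotein cholesterol reaches the other members.

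Promoter sequences are shown for *Abca1*, which had the closest match to the motif of the receptors among the members searched, and for *Abcg5* and *Abcg8*, whose starts adjoin on opposite strands. The sequences are those of RefSeq for GRCm38.p6, and 7 of the 10 genes had an entry, each of 250 bases before the start of transcription and 50 bases after it. The receptor pair prefers a direct repeat of AGGTCA with 4 bases between the repeats (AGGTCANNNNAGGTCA). The *Abca1* window (chr4:53159846-53160145, minus strand) is shown for its closest match to that motif, in capitals, in which 3 of the 12 fixed letters differ and which ends 51 bases before the start. On the other strand those capitals read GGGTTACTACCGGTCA.
Abca1 promoter: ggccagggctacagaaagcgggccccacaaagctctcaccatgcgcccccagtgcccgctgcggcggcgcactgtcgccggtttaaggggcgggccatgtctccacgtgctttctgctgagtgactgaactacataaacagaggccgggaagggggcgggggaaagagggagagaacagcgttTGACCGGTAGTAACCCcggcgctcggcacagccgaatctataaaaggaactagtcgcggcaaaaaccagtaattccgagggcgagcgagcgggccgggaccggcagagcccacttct
The window of *Abcg5* (chr17:84682962-84683261, minus strand) is shown because it also holds a start of *Abcg8*, the more downstream of the 2 in the table, which is read from the opposite strand. The capitals mark the 109 bases between the *Abcg5* start at 84683011 and the *Abcg8* start at 84683121.
Abcg5 and Abcg8 shared start region: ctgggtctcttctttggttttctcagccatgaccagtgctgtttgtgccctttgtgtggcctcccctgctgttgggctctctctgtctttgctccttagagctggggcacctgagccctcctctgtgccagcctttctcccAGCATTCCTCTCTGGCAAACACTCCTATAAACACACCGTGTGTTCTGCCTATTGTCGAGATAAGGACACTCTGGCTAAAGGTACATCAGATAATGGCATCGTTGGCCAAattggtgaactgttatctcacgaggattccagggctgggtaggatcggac
Both strands were searched. A match with at most 3 differing letters was present in 21.9% of the 32851 promoters in the table, so a match as close as that of *Abca1* was common. The best matches in the windows of *Nr1h3*, *Nr1h2*, *Abcg5*, *Abcg8* and *Npc2* had 4 differing letters, and that of *Mylip* had 5. These are matches of letters in a short window and do not show whether the receptor bound there.

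Levels are given as rescaled TPM. TPM (transcripts per 1000000) divides the reads of a gene by its length, so genes can be compared with each other, but the deposited TPM was filled mostly by noncoding RNA. The 7SL RNA of the signal recognition particle took 64.0% to 83.6% of it and mitochondrial ribosomal RNA 8.43% to 27.7%, which left nuclear protein-coding genes 3.04% to 5.31% in the apoC-III ASO livers and 1.94% to 8.64% in the control livers. The protein-coding part was therefore rescaled to 1000000 in each liver and divided by a median-of-ratios factor. Control ASO replicate 4 stood apart, with the lowest protein-coding share (1.94%) and a factor of 0.496 against 0.930 to 1.44 in the other livers. TPM keeps no read depth, so the counting error of a value is unknown. The spread below is the spread between mice, and with 9 mice it limits what could be detected.

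The target was lowered in every treated liver. *Apoc3* stood at 379, 431, 334, 622 and 485 rescaled TPM in apoC-III ASO replicates 1 to 5 and at 3370, 3169, 3479 and 4291 in control ASO replicates 1 to 4. The groups were far apart, at -3.01 on the log2 scale (SE 0.23, adjusted p = 3.88e-04, limma-trend with Benjamini-Hochberg adjustment over 11968 genes). The exact two-sided permutation p on the deposited TPM was 0.0159, the smallest that 5 against 4 livers can give, but the limma-trend call was lost on that scale (-2.62, adjusted p = 0.104). *Apoe* (log2 fold change -0.43, SE 0.33) and *Ndst1* (0.27, SE 0.25), which are altered in all the mice, did not pass the test between groups. The defining hepatocyte markers were present, with *Alb* between 15301 and 39704 in the apoC-III ASO livers and between 19505 and 25963 in the controls. Of the 6 listed, 2 had higher and 4 lower means in the treated livers. Among them 1, *Serpina1c*, had an unadjusted p under 0.05, as 5.57% of all genes did. It was at 1322 to 3574 against 2957 to 5035 (log2 fold change -0.82, adjusted p = 0.860 by limma-trend).

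None of the 10 genes of liver X receptor response and sterol traffic passed the test. Over all genes tested, 0.0167% were called (2 genes, *Apoc3* and *Anpep*, both lower), and the count of 0 of 10 members did not stand apart from that share. *Anpep* was named after its values were seen. No member had an unadjusted p under 0.05, against 5.57% of all genes, and in no member were the groups free of overlap, against 1.83% of all genes. Of the 10 members, 3 had a higher mean in the apoC-III ASO livers (*Nr1h2*, *Soat2* and *Abcg5*) and 7 a lower one, where 49.9% of all genes were higher. The median log2 fold change of the members was -0.078 and that of all genes -0.0013. On the scale of the test, log2(rescaled TPM + 1), *Nr1h2* and *Soat2* differed by over 1.5-fold, as 11.7% of all genes did. The group means of *Abcg1*, a gene at a low level, were 1.97 and 3.24 rescaled TPM, which that scale understates. All 10 intervals of the difference included 0, and the widest, that of *Nr1h2*, ran from -0.23 to 1.75 on the log2 scale. The signs of *Nr1h3*, *Abca1*, *Abcg8*, *Mylip*, *Npc1* and *Npc2* turned without the median-of-ratios factors, which moved the median of all genes to 0.41, and those of *Abcg8* and *Npc1* on the deposited TPM, which moved it to 0.11. Relative to the median of all genes, each of the 10 kept its sign under each of these scalings that tested it. The main scaling already brings that median close to 0, so taking it off nearly restores the main scaling and is no separate check. *Npc1* was then at only -0.0064 without the factors and -0.013 on the deposited TPM.

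**Figure D1:**
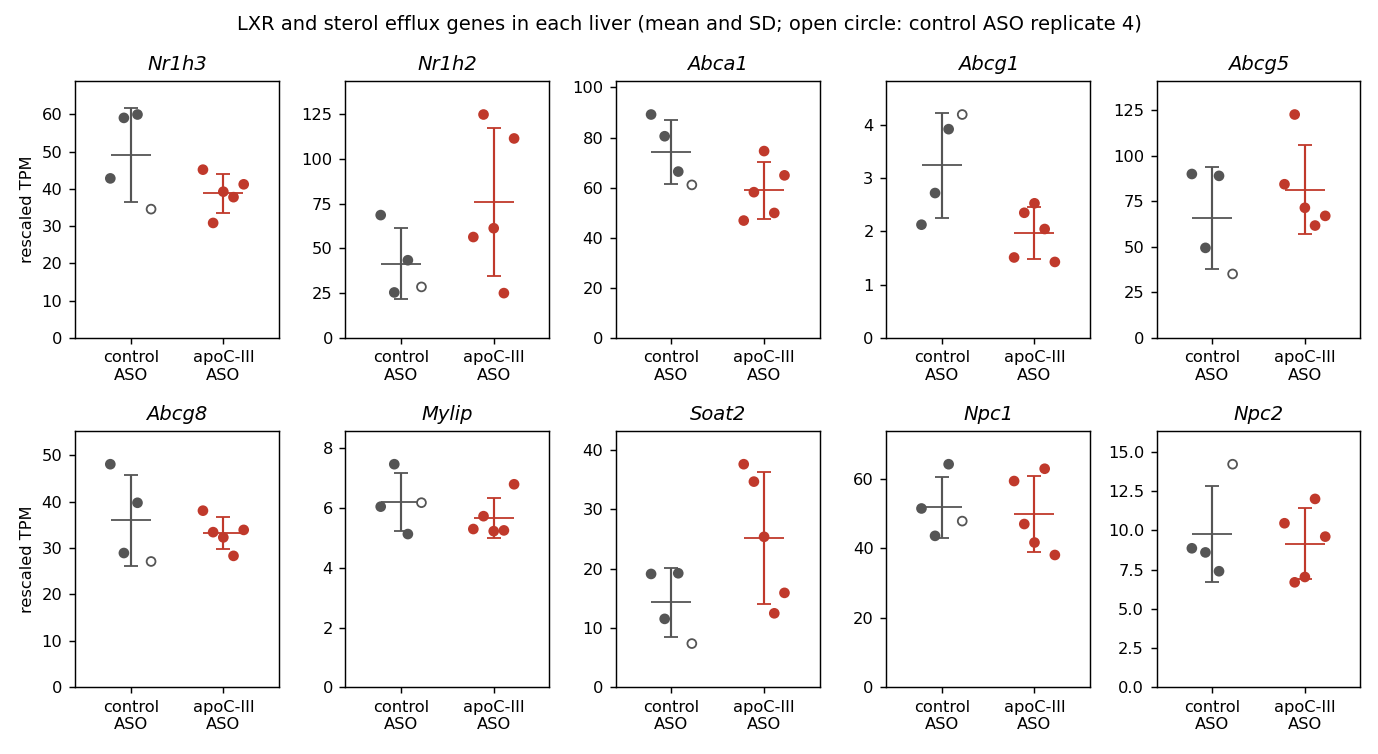
Rescaled TPM (linear axis from 0, one panel per gene) in each of the 4 control ASO and 5 apoC-III ASO livers, with the group mean as a horizontal line, 1 SD as bars and control ASO replicate 4 as an open circle. The groups overlapped in all 10 panels, and *Nr1h2* and *Soat2* spread most, about 5.01-fold and 5.09-fold from the lowest liver to the highest.

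Of the receptor genes, *Nr1h3* had a lower and *Nr1h2* a higher mean in the treated livers, and neither difference passed the test. *Nr1h3* encodes LXRα, the form usually held to dominate in liver, and lies on chromosome 2 (GRCm38, chr2:91184061-91202834, minus strand, ENSMUSG00000002108). It stood at 45.2, 30.8, 39.2, 37.8 and 41.2 rescaled TPM in apoC-III ASO replicates 1 to 5 and at 42.8, 59.1, 60.0 and 34.6 in control ASO replicates 1 to 4. Control replicates 2 and 3 lay above every treated liver, whereas control replicate 4 lay below 4 of the 5. The difference between group means in log2 was -0.31 (SE 0.22, 95% interval -0.79 to 0.18, adjusted p = 0.907, limma-trend). A noncoding gene, *Gm13783*, overlaps *Nr1h3* on the same strand by 6873 bases and had a mean deposited TPM of 0.096.

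*Nr1h2* encodes LXRβ, the form found in most tissues (chr7:44549616-44553951, minus strand, ENSMUSG00000060601). Its levels were 56.3, 125, 61.2, 24.9 and 111 rescaled TPM in the apoC-III ASO livers and 68.6, 25.3, 43.3 and 28.4 in the controls. Treated replicates 2 and 5 lay above every control, and treated replicate 4 was the lowest of all 9 livers. The difference in log2 was 0.76 (SE 0.45, 95% interval -0.23 to 1.75, adjusted p = 0.900, limma-trend), which corresponds to 1.69-fold. The treated mean was 75.7 ± 41.4 (SD, n = 5) and the control mean 41.4 ± 19.7 (SD, n = 4). With each liver left out in turn it ranged from 0.53 without treated replicate 2 to 1.10 without treated replicate 4, where the adjusted p was 0.637.

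Within a liver, the ratio of *Nr1h3* to *Nr1h2* does not depend on the scaling. It was 0.802, 0.247, 0.641, 1.52 and 0.370 in the apoC-III ASO livers and 0.624, 2.33, 1.38 and 1.22 in the controls. The α form was thus the more abundant mRNA in only 4 of 9 livers, 1 of 5 treated and 3 of 4 controls, and the ranges overlapped. The ratio varied 9.44-fold over the 9 livers, the most of the 5 ratios examined.

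The exporters of cholesterol to HDL both had lower means in the treated livers, and in neither did the difference pass the test. *Abca1* encodes the transporter that loads cholesterol and phospholipid onto lipid-poor apoA-I, the step that starts an HDL particle (chr4:53030787-53159895, minus strand, ENSMUSG00000015243). Its levels were 46.8, 58.2, 74.6, 49.9 and 64.9 rescaled TPM in the apoC-III ASO livers and 89.2, 80.5, 66.4 and 61.1 in the controls. Treated replicates 1, 2 and 4 lay below every control and control replicates 1 and 2 above every treated liver, with the rest intermixed. On the log2 scale the difference was -0.34 (SE 0.21, 95% interval -0.80 to 0.13, adjusted p = 0.901, limma-trend), and the exact two-sided permutation p was 0.0952.

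*Abcg1*, whose product passes cholesterol on to HDL particles already formed, was the least abundant of the 10 (chr17:31057675-31117988, plus strand, ENSMUSG00000024030). It stood at 1.51, 2.35, 2.53, 2.04 and 1.42 rescaled TPM in the apoC-III ASO livers and at 2.12, 2.72, 3.92 and 4.20 in the controls. Control replicates 2, 3 and 4 lay above every treated liver, and control replicate 1 fell among them. The difference in log2(rescaled TPM + 1) was -0.50 (SE 0.25, 95% interval -1.05 to 0.054, adjusted p = 0.883, limma-trend), and the exact permutation p was 0.0635. Without control replicate 4 the difference was -0.40. The pseudocount of 1 understates the change of a gene at this level, and with a pseudocount of 0.1 the value was -0.67 with an adjusted p of 0.899. On the deposited TPM its mean was under 1, and it was not tested there. Control replicate 4, the highest liver after rescaling, was the lowest on the deposited TPM, at 0.0405 against 0.0411 to 0.155 in the treated livers.

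*Abca1* and *Abcg1* are also expressed by macrophages and other nonparenchymal cells, and in whole liver fewer cells of a type and less RNA per cell cannot be told apart. The summed level of 8 Kupffer cell and macrophage markers was 63.9 to 103 rescaled TPM in the apoC-III ASO livers and 57.2 to 104 in the controls, with none of the 8 at 0 in any liver and none of the 7 tested at an unadjusted p under 0.05. That list therefore overlapped widely between the groups. The summed level of 5 stellate cell markers was 107 to 140 in the treated livers and 134 to 231 in the controls, and all 5 had lower means in the treated livers. Most of that sum was *Dcn*, a matrix proteoglycan gene, at 70.0 to 102 against 89.7 to 177. The highest sum, *Dcn* and *Lrat* were those of control replicate 4, the liver that stood apart. *Lrat*, the retinol-esterifying enzyme of stellate cells, was at 0.977 to 1.63 against 2.29 to 5.28, without overlap (log2 fold change -0.89, adjusted p = 0.842 by limma-trend). *Lrat* and *Dcn* (-0.57, adjusted p = 0.876) were the 2 of the 5 with an unadjusted p under 0.05. Over all genes, 1.83% were without overlap and 5.57% had an unadjusted p under 0.05. The summed sinusoidal endothelial markers were 78.5 to 118 against 66.5 to 115, and *Krt19* and *Epcam* of the cholangiocyte list and *Cd3e*, *Cd79a* and *S100a8* of the leukocyte list were at 0 in at least 1 liver. The part of these cells in the values of *Abca1*, *Abcg1* and *Npc2* was not tested. The ratio of *Abca1* to *Abcg1* within a liver ran from 24.4 to 45.6 in the treated livers and from 14.6 to 42.0 in the controls.

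**Figure D2:**
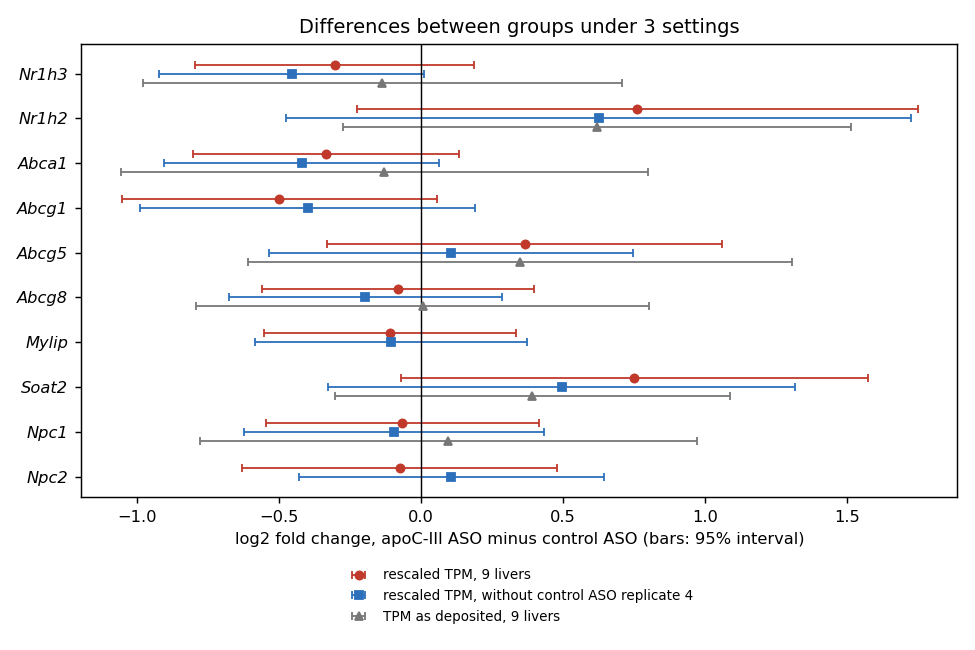
Log2 fold change of each gene (apoC-III ASO minus control ASO, horizontal axis) with its 95% interval under 3 settings, namely rescaled TPM in 9 livers, rescaled TPM without control ASO replicate 4, and TPM as deposited. All 10 intervals of rescaled TPM in 9 livers cross 0, and *Abcg1*, *Mylip* and *Npc2* have no value for TPM as deposited because their mean there is under 1.

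*Abcg5* and *Abcg8* encode the partners of a single transporter that secretes cholesterol and plant sterols into bile, which joins an ABCG5 and an ABCG8 chain. Their genes lie on opposite strands of chromosome 17, *Abcg5* at chr17:84658234-84683011 (minus strand, ENSMUSG00000040505) and *Abcg8* at chr17:84676302-84700333 (plus strand, ENSMUSG00000024254). These annotated spans overlap by 6710 bases, because that of *Abcg8* begins at its more upstream start. From the *Abcg8* start in the sequence above, the genes lie head to head without overlap. The library was stranded, but whether the quantification used strand is not given in the sources used here, so reads from the overlap may have been assigned to either gene. Overlap of exons was not examined. *Abcg5* stood at 84.3, 123, 71.4, 61.6 and 66.9 rescaled TPM in the apoC-III ASO livers and at 89.9, 49.3, 88.9 and 35.0 in the controls. Treated replicate 2 was the highest of all livers, control replicates 2 and 4 lay below every treated liver, and control replicates 1 and 3 lay near the top. The groups differed by 0.36 in log2 (SE 0.32, 95% interval -0.33 to 1.06, adjusted p = 0.927, limma-trend), and without control replicate 4 it was 0.10.

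*Abcg8* was at 38.0, 33.4, 32.3, 28.3 and 33.9 rescaled TPM in the apoC-III ASO livers and at 48.0, 28.9, 39.7 and 27.1 in the controls. The treated livers lay inside the range of the controls. Their log2 fold change was -0.081 (SE 0.22, 95% interval -0.56 to 0.40, adjusted p = 0.990, limma-trend), and without control replicate 1 its sign turned to give 0.070. The ratio of *Abcg5* to *Abcg8* within a liver was 2.22, 3.67, 2.21, 2.18 and 1.97 in the treated livers and 1.87, 1.71, 2.24 and 1.29 in the controls. *Abcg5* was the more abundant mRNA in all 9 livers, and 3 of the 4 controls lay below every treated liver, while control replicate 3 lay above all but treated replicate 2. The low control value belonged to replicate 4, the liver that stood apart.

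**Figure D3:**
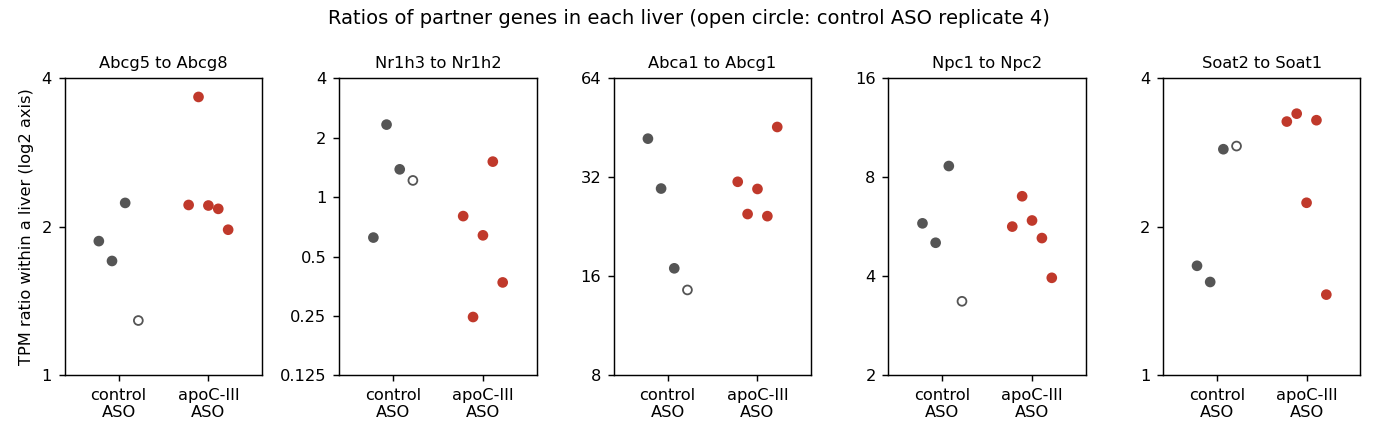
Ratio of TPM between 2 partner genes within each liver (log2 axis, one panel per pair), by group, with control ASO replicate 4 as an open circle. The groups overlapped in each panel, and the *Abcg5* to *Abcg8* ratio of 3.67 in apoC-III ASO replicate 2 stands above the other treated livers at 1.97 to 2.22.

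*Mylip* encodes IDOL, the ubiquitin ligase that marks lipoprotein receptors for destruction in the lysosome, and so joins the liver X receptors to lipoprotein uptake (chr13:45389742-45412022, plus strand, ENSMUSG00000038175). It was the steadiest of the 10, at 5.29, 5.72, 5.22, 5.25 and 6.79 rescaled TPM in the apoC-III ASO livers and 6.04, 7.46, 5.12 and 6.17 in the controls. The groups were intermixed, and the log2 fold change was -0.11 (SE 0.20, 95% interval -0.55 to 0.33, adjusted p = 0.974, limma-trend). Among its known substrates, *Lrp8*, a receptor known best from brain, was low and variable (0 to 1.43 rescaled TPM in the treated livers against 0.301 to 9.81 in the controls). The 9.81 was control replicate 4, and the other 3 controls lay within the treated range. *Vldlr* was too low to be tested.

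*Soat2* encodes the acyltransferase that forms cholesterol ester in hepatocytes for storage and for packing into VLDL (chr15:102150526-102163469, plus strand, ENSMUSG00000023045). Its levels were 37.6, 34.7, 25.4, 12.5 and 15.9 rescaled TPM in the apoC-III ASO livers and 19.1, 11.5, 19.2 and 7.39 in the controls. Treated replicates 1, 2 and 3 lay above every control, and treated replicates 4 and 5 fell among the controls. The difference in log2 was 0.75 (SE 0.38, 95% interval -0.071 to 1.57, adjusted p = 0.883, limma-trend), a 1.68-fold difference with an interval from 0.952-fold to 2.97-fold. The exact two-sided permutation p was 0.143. Its unadjusted p of 0.0697 was the lowest of the 10 members and ranked 938 among the 11968 genes tested. Without control replicate 4, whose *Soat2* was the lowest of all livers, the difference was 0.49.

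*Soat1*, the form of macrophages and other cells, was lower than *Soat2* in all 9 livers. The ratio of *Soat2* to *Soat1* was 3.27, 3.39, 2.24, 3.29 and 1.46 in the apoC-III ASO livers and 1.67, 1.55, 2.87 and 2.92 in the controls. Treated replicates 1, 2 and 4 lay above every control, and treated replicate 5 lay below them all. The log2 fold change of *Soat1* was 0.45 (SE 0.39, adjusted p = 0.930). The neutral cholesterol ester hydrolase gene *Nceh1* differed by -0.42 in log2 (SE 0.23, adjusted p = 0.899), and *Lipa*, the lysosomal acid lipase that frees cholesterol from incoming lipoprotein ester, by -0.12 (SE 0.24). None of the 4 genes of cholesterol ester turnover was called in either direction.

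The genes of lysosomal exit had the smallest log2 fold changes of the members, but *Abcg8* was nearly the same at -0.081. All of these were smaller than their SE. NPC2 is a soluble protein of the lysosome that picks up free cholesterol and passes it to NPC1 in the lysosomal membrane. *Npc1* (chr18:12189692-12236400, minus strand, ENSMUSG00000024413) was at 59.3, 46.9, 41.6, 62.8 and 38.0 rescaled TPM in the apoC-III ASO livers and 51.4, 43.5, 64.1 and 47.8 in the controls. High and low livers were found in both groups. The difference in log2 was -0.067 (SE 0.22, 95% interval -0.55 to 0.41, adjusted p = 0.991, limma-trend), and it was 0.028 without treated replicate 5 and 0.039 without control replicate 3. As annotated spans, *Npc1* overlaps *3110002H16Rik* by 967 bases and the antisense gene *Gm15956* by 4908 bases, both on the opposite strand. Their mean deposited TPM was 1.65 and 0.011, against 2.71 for *Npc1*. A share of the *Npc1* value may belong to them, but overlap of exons was not examined.

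*Npc2* (chr12:84754562-84773152, minus strand, ENSMUSG00000021242) was at 10.5, 6.69, 7.03, 12.01 and 9.60 rescaled TPM in the apoC-III ASO livers and 8.86, 8.60, 7.40 and 14.2 in the controls. The highest liver was control replicate 4 and the lowest treated replicate 2. The log2 difference was -0.076 (SE 0.25, 95% interval -0.63 to 0.48, adjusted p = 0.991, limma-trend), and it was 0.11 without control replicate 4 and 0.014 without treated replicate 2. *Npc1* was the more abundant mRNA in all 9 livers, by 3.96-fold to 7.01-fold in the treated livers and 3.36-fold to 8.66-fold in the controls.

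Ranked by mean rescaled TPM, a level per gene length, over the 9 livers, *Abcg5* came first at 74.4 ± 25.7 (SD, n = 9), followed by *Abca1* at 65.7 ± 13.9, *Nr1h2* at 60.5 ± 36.5, *Npc1* at 50.6 ± 9.47 and *Nr1h3* at 43.4 ± 10.1. Then came *Abcg8* at 34.4 ± 6.65, *Soat2* at 20.4 ± 10.4, *Npc2* at 9.43 ± 2.47, *Mylip* at 5.89 ± 0.806 and *Abcg1* at 2.53 ± 0.965. The order differed between the groups, since *Abca1* (74.3) came before *Abcg5* (65.8) and *Nr1h2* (41.4) after *Npc1* (51.7) and *Nr1h3* (49.1) in the control means, whereas *Nr1h2* (75.7) came second to *Abcg5* (81.4) in the treated means. At the bottom of the order over all livers, *Npc2* exceeded *Mylip* and *Mylip* exceeded *Abcg1* in 9 of 9 livers. *Abcg8* exceeded *Soat2*, and *Soat2* exceeded *Npc2*, in 8 of 9. Among the 5 most abundant genes the neighbors changed places between livers, with *Abcg5* above *Abca1* in 6, *Abca1* above *Nr1h2* in 6 and *Nr1h2* above *Npc1* in 4 of 9. The highest liver exceeded the lowest by 1.46-fold for *Mylip*, 1.69-fold for *Npc1*, 1.77-fold for *Abcg8*, 1.91-fold for *Abca1* and 1.94-fold for *Nr1h3*, and by 3.50-fold for *Abcg5*.

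The genes whose pattern over the 9 livers lay closest to a member were found by the SD of their log2 ratio to it, a measure that does not depend on the scaling, among 11365 genes above 0 in every liver. For *Nr1h3* they were *Akap13* (SD 0.144), *N6amt1* (0.146) and *Kdm5a* (0.155), against a median of 0.595 over all genes. *Nr1h2* took place 10210 of 11365 for *Nr1h3*, 9654 for *Abca1* and 3591 for *Abcg5*. *Soat2*, which spread about as much over the livers, took place 9213 for *Nr1h3*. The measure grows with a gene's own spread, so these places do not single out the receptors as an unlike pair. For *Abca1* the nearest were *Zfp568* (0.142), *Zfp445* (0.145) and *Abcc5* (0.152), against a median of 0.590, and the nearest member was *Mylip* at place 156 (0.274). For *Abcg5* they were *Sppl3* (0.168), *Klf12* (0.187) and *Bcr* (0.196), against a median of 0.726, with *Soat2* at place 394 (0.393) and its partner *Abcg8* at place 440 (0.401). No member was among the 3 genes nearest to another of these 3 members.

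The surrounding pathway was described with 52 further genes in 7 lists, of which 47 were tested and none was called. At an unadjusted p under 0.05 there were 2 genes, 4.26% of those tested against 5.57% of all genes, and 23 of the 47 had a higher mean in the treated livers and 24 a lower one. Among the 5 partners and corepressors of the receptors, 3 were higher and 2 lower. *Rxrb*, a retinoid X receptor that pairs with them, was at 28.6 to 47.4 rescaled TPM in the treated livers and 14.0 to 28.7 in the controls (log2 fold change 0.64, SE 0.25, unadjusted p = 0.0245 and adjusted p = 0.873 by limma-trend). Its groups met within a narrow margin. The main hepatic partner *Rxra* (-0.23, SE 0.20) did not pass the test either.

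Of 12 other targets of the receptors, 11 were tested, 5 with higher and 6 with lower means and a median log2 fold change of -0.082. *Rnf145*, a ubiquitin ligase gene of the sterol response, was at 3.13 to 6.05 rescaled TPM in the treated livers and 4.999 to 8.08 in the controls (log2 fold change -0.62, SE 0.24, unadjusted p = 0.0255, adjusted p = 0.873). *Cyp7a1*, the rate-limiting enzyme of bile acid synthesis, had the largest difference of the list at -0.98 (SE 0.51, adjusted p = 0.887), with 70.4 to 241 in the treated livers and 101 to 516 in the controls. The fatty acid synthase gene *Fasn* differed by -0.67 (SE 0.32, adjusted p = 0.883) and *Srebf1*, named after its values were seen as the classical lipogenic target, by 0.010 (SE 0.42). *Arl4c* was too low to be tested.

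Of 6 genes that make or remove the sterols that activate the receptors, 4 were tested, 1 higher and 3 lower. *Cyp7b1*, which breaks down oxysterols, differed by -0.47 (SE 0.29, adjusted p = 0.900), and *Cyp27a1*, which makes 27-hydroxycholesterol, by -0.12 (SE 0.24). *Ch25h*, which makes 25-hydroxycholesterol, was listed at 0 in all 9 livers, and *Sult2b1* was also too low to be tested. Of 9 partners in sterol export and uptake, 8 were tested, 5 higher and 3 lower. *Scarb1*, the receptor that returns HDL cholesterol to the liver, was at 79.6 to 166 in the treated livers and 60.5 to 110 in the controls (0.52, SE 0.26, adjusted p = 0.883). *Abcb11*, the bile salt export pump, differed by 0.55 (SE 0.50) and *Apoa1*, whose protein is the acceptor for ABCA1, by -0.34 (SE 0.23).

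Of 13 genes of lysosomal and membrane contact transport, all were tested, 7 higher and 6 lower. *Gramd1a*, which carries cholesterol from the plasma membrane to the endoplasmic reticulum, differed by 0.62 (SE 0.29, unadjusted p = 0.0537 and adjusted p = 0.876 by limma-trend). *Tmem97*, whose product binds NPC1, differed by -0.36 (SE 0.26), and *Gramd1c* by 0.34 (SE 0.35).

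**Figure D4:**
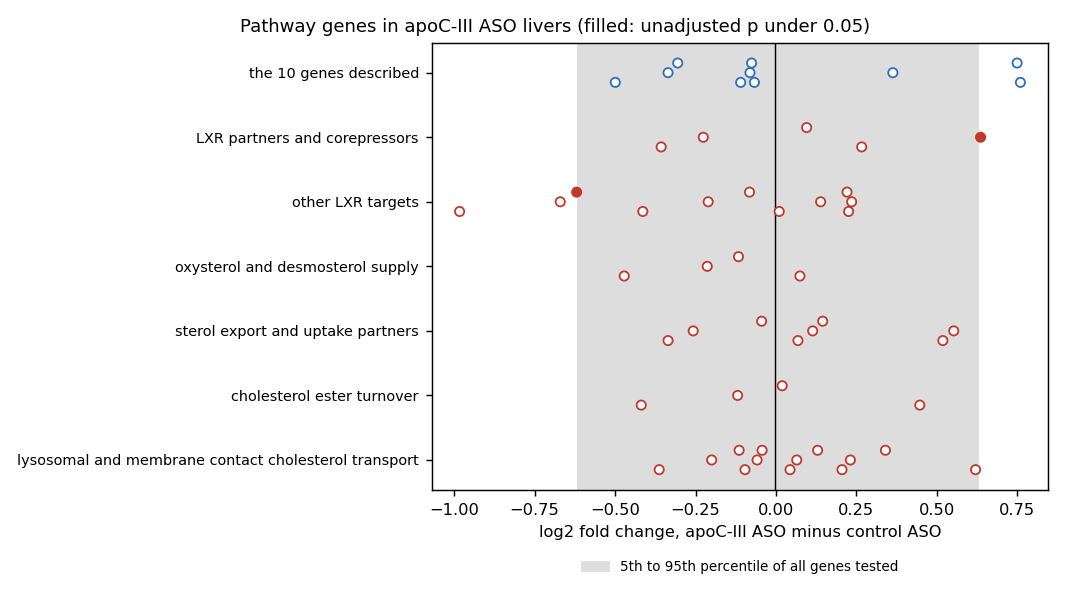
Log2 fold change (apoC-III ASO minus control ASO) of each tested gene, in rows for the 10 genes described and 6 of the 7 pathway lists, with the band between the 5th and 95th percentiles of all genes tested in grey (-0.61 to 0.63). Filled points are *Rxrb* at 0.64 and *Rnf145* at -0.62, which had an unadjusted p under 0.05, and the list left out holds a gene that is not reported here.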

How the data were processed

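The authors sequenced ribosome-depleted, stranded liver libraries with single-end reads, and they deposited TPM per gene for each of the 9 mice. The submitters' processing notes name kallisto 0.43.1 and GRCm38, whereas in the study's methods reads were aligned with STAR, counted with featureCounts and tested with DESeq2. Those read counts were not used here, and whether both came from one quantification is not known. TPM scales each library to the same total and keeps no depth.

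Of 51912 identifiers, 51719 (99.6%) were found in GENCODE M21 (GRCm38). Values of nuclear protein-coding genes were set to a sum of 1000000 in each liver and divided by median-of-ratios factors from 12263 genes above 0 in all livers. The 11968 genes with a mean of at least 1 were tested on log2(rescaled TPM + 1) with limma 3.58.1 in R 4.3.3 (lmFit, eBayes with trend, two-sided, no covariates), with calls at over 1.5-fold and an adjusted p (Benjamini-Hochberg) under 0.05. The fit was tested on simulated data. It called 3 of 50 genes changed 1.5-fold, 21 of 50 changed 2-fold and 43 of 50 changed 4-fold, with 7 false calls. A change of 2-fold or less in a member could therefore have been missed. Single genes were also compared by exact two-sided permutation of the 9 livers. The other steps were run in Python 3.11.15 with scipy 1.17.1, pandas 2.3.3, numpy 2.4.6 and, for the plots, matplotlib 3.10.9.

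All 10 members are named, with *Apoc3*, *Apoe* and *Ndst1* as checks. From each pathway list the 3 genes with the smallest unadjusted p and any under 0.05 are named, together with the 3 nearest genes of *Nr1h3*, *Abca1* and *Abcg5*. Some genes that this rule names are not reported here. The members and lists were chosen with earlier results of these data known. Motifs were searched in the RefSeq promoter table for GRCm38.p6.

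Alternatives were the TPM as deposited, other scalings, pseudocounts of 0.1 and 0.5, no filter or a minimum of 5, array weights, other eBayes settings, other thresholds, a replicate block and each liver left out. The deposited TPM without control ASO replicate 4 was added after seeing the data.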

Additional observations from a re-analysis of the deposited data

Results flagged for a closer look

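The ratio of *Abcg5* to *Abcg8* in apoC-III ASO replicate 2 was 3.67, and the other 4 treated livers lay between 1.97 and 2.22. It stood out because its gap to the nearest liver was 0.857 of the group's whole range, above Dixon's 95% limit for 5 values. This was the only such value in 32 groups examined, and chance gives about 1 in 20.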

How the results depend on the processing

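None of the 10 genes was called under any of the 24 alternatives, and *Nr1h2*, *Soat2* and *Abcg1* kept their sign in all that tested them. Signs turned without median-of-ratios factors for *Nr1h3* (0.16), *Abca1* (0.13), *Abcg8* (0.38), *Mylip* (0.29), *Npc1* (0.40) and *Npc2* (0.36). They turned on the deposited TPM for *Abcg8* (0.0050) and *Npc1* (0.096), on the deposited TPM without control replicate 4 for *Abcg5* (-0.18), and with array weights for *Npc2* (0.0055). With each liver left out, *Abcg8* ranged from -0.20 to 0.070, *Npc1* from -0.15 to 0.039 and *Npc2* from -0.18 to 0.11. Members at an unadjusted p under 0.05 numbered 2 without factors (with 1328 of all 12051 genes tested there). On the deposited TPM without control replicate 4 there was 1 (*Nr1h3*), against 5.47% of all genes. With a liver left out there were 0 to 3. Without control replicate 1 there were 3 (*Nr1h2*, *Abcg1* and *Soat2*), against 5.70% of all genes. Without treated replicate 4 there were 2 (*Nr1h2* and *Soat2*), against 7.03%. Without treated replicate 5 or control replicate 3 there was 1 (*Soat2*), against 5.68% and 5.73%. Genes called higher numbered 5 on the deposited TPM, 1 with factors from all genes, 1 on the deposited TPM without control replicate 4 and 0 to 1 with a liver left out (1 without treated replicate 3). Genes called lower numbered 6 on the deposited TPM and 1 with factors from all genes, without factors, with no filter or with eBayes without a trend, and 1 to 3 with a liver left out (1 when treated replicate 1, 2, 3 or 4 or control replicate 1 or 3 was left out, and 3 when treated replicate 5 or control replicate 4 was). *Apoc3* had a log2 fold change of -2.62 and an adjusted p of 0.104 on the deposited TPM, and passed in the other alternatives. The cause of these changes was not tested. *Abcg1*, *Mylip* and *Npc2* could not be tested on the deposited TPM. Read depth is unknown.

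The replicate numbers in the titles are shared between groups. Deviations of same-numbered livers correlated at 0.067, 0.12, 0.028 and 0.19, and those of livers with different numbers at -0.21 to 0.18. Every same-numbered value was positive, and the 0.19 of number 4 was the highest of all. The numbers were not taken as pairs in the main test, and these values do not settle whether they are pairs. With the replicate block, 1 gene was called higher and 2 lower, and the sign of *Npc1* turned (0.021). There 1 member had an unadjusted p under 0.05 (*Soat2*, log2 fold change 0.88, adjusted p = 0.556 by limma-trend), against 7.80% of all genes. Not every liver correlated best with its own number.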
